A study of Mus musculus with 17 samples.

Results

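The Hox genes of the mouse were followed by cluster and by paralog group in brain RNA from mice that overexpress HAR1A and from normal mice. A listed set of 38 coding Hox genes was taken by symbol out of 41015 annotated genes, with no cut-off on a measured value. The set was chosen with earlier results of these data known. They comprise 10 genes of cluster A on chromosome 6, 10 of cluster B on chromosome 11, 9 of cluster C on chromosome 15 and 9 of cluster D on chromosome 2 (mm10).

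All 17 libraries were made from brain of mice on a C57BL/6 strain background. A transgene for HAR1A, a human long noncoding RNA, was carried by the mice of 6 libraries, and 11 libraries came from normal control mice without it. The 6 transgene libraries were sequenced on lane 4 of 1 flow cell, together with controls 7, 8 and 11. Controls 1, 2, 3, 5, 9 and 10 were on lane 8 and control 4 on lane 2 of that flow cell, and control 6 was on lane 6 of another. The promoter of the transgene, the number of founder lines, the age of the mice and the part of the brain taken are not stated in the labels used here. The labels also leave unsaid whether libraries are separate animals, and the p-values therefore reflect library-to-library spread, which may be technical. HAR1A itself was not measured here. Libraries are numbered within each group in the order of deposition.

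Hox genes encode homeodomain transcription factors that give segments along the head-to-tail axis their identity. Within a cluster the genes lie in the order of their paralog numbers, and low-numbered genes have more anterior limits of expression in the embryo than high-numbered ones. In the nervous system the low-numbered groups are known from hindbrain and cervical cord and the highest from lumbar and sacral cord, while forebrain and midbrain lie in front of the Hox domain. Many neurons keep the Hox genes of their segment into adult life. Genes with the same paralog number in different clusters are copies descended from 1 ancestral gene.

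Assigned counts ranged from 17067407 to 22642441 per library, and a further 40.2 to 43.4% of reads fell on several transcripts and were given to none. Marker genes of brain regions stood at different levels in the 2 groups. Emx1, a transcription factor gene of cortical neurons, stood at 47.9 to 77.8 CPM (counts scaled to library size) in the transgene libraries and at 0.306 to 24.0 CPM in the controls. Gabra6, the GABA receptor subunit gene of cerebellar granule cells, stood at 0.232 to 37.6 CPM in the controls and at 0 to 5.90 CPM in the transgene libraries. The glycine transporter gene Slc6a5, a marker of inhibitory neurons of brainstem and cord, stood at 5.75 to 35.5 CPM in the controls and at 0 to 0.316 CPM in the transgene libraries.

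The control libraries held 36389 Hox counts, and 19 of the 38 genes had at least 100 of them. Another 9 genes had between 1 and 49 counts over the 11 controls, and 10 genes had none in any of the 17 libraries. All 10 silent genes belong to paralog groups 9 to 13. A count of 0 in 1 control allows a level of up to 0.132 to 0.176 CPM, the value of 3 counts at the depth of these libraries. Groups 1 to 5 held 87.7% of the control counts and groups 6 to 8 held 12.1%. The 16 genes of groups 9 to 13 together held 70 counts. By cluster, B held 49.4%, A 37.0%, C 9.14% and D 4.44%.

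**Figure D1:**
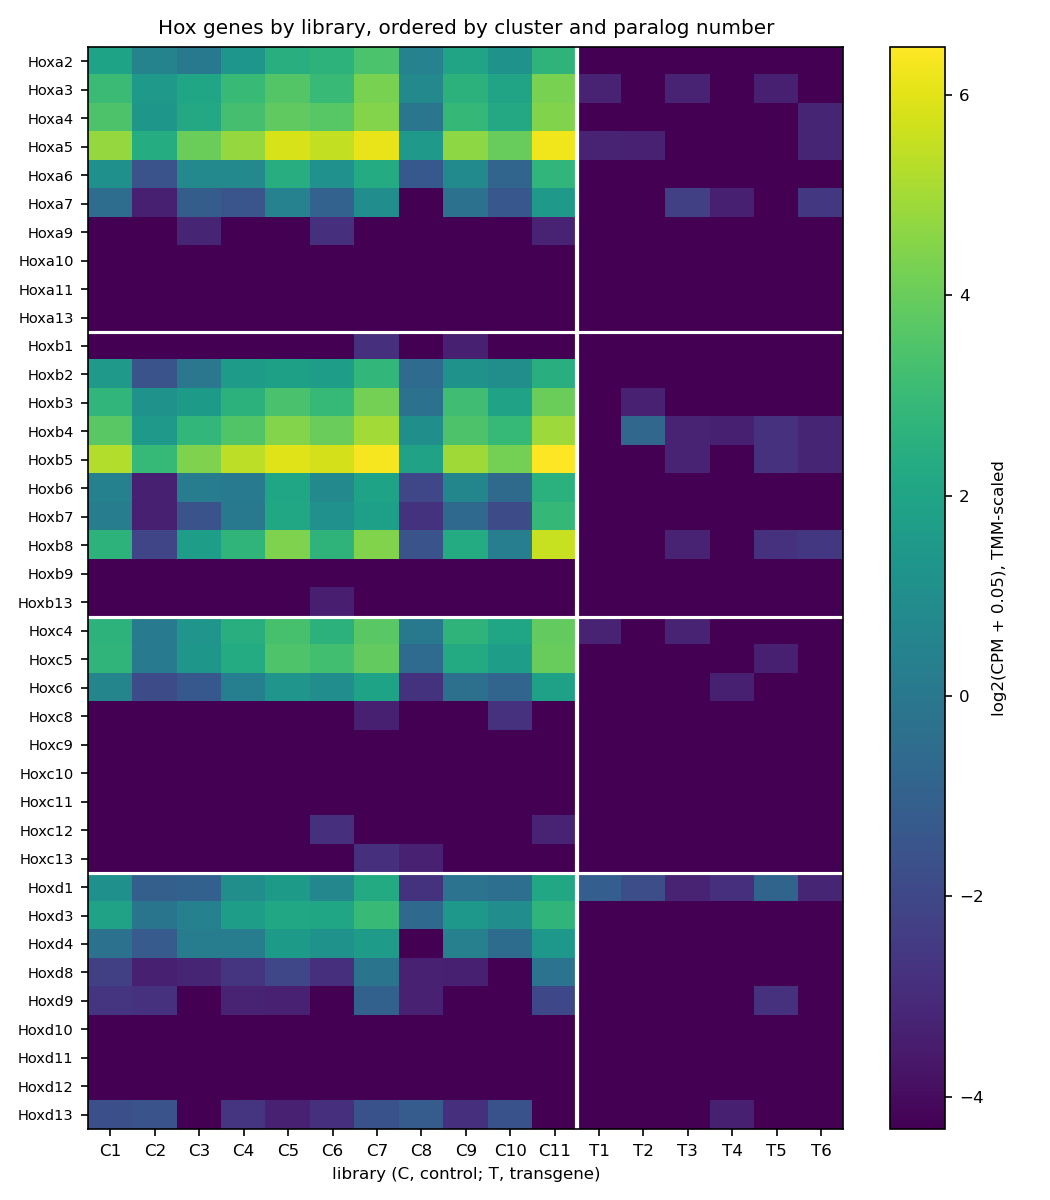
Each row is 1 Hox gene, ordered by cluster (white lines) and paralog number, each column is 1 library, and colour gives log2(CPM + 0.05) after TMM scaling. Rows of paralog groups 2 to 6 are bright across the 11 controls, rows of groups 10 to 12 are dark in nearly every library, and the 6 transgene columns are dark except for scattered single counts and Hoxd1 and Hoxb4.

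The printed sequences show the upstream side of 4 members that stand for the levels described below: Hoxa2, an anterior gene; Hoxa5, one of the strongest; Hoxb8, the last active gene of its cluster; and Hoxd4, a weak gene. Each holds the 250 bases before a RefSeq start site (GRCm38.p6, the assembly of mm10), 5′ to 3′ on the strand of the gene. Capitals mark matches to TGATNNAT, the composite site of Hox and Pbx proteins, and to TTTATG or TTTACG, a core bound by posterior Hox and Cdx proteins, on either strand. The stretches lie at chr6:52164832-52165081 on the minus strand for Hoxa2, chr6:52204588-52204837 on the minus strand for Hoxa5, chr11:96281655-96281904 on the plus strand for Hoxb8 and chr2:74721728-74721977 on the plus strand for Hoxd4.
Hoxa2: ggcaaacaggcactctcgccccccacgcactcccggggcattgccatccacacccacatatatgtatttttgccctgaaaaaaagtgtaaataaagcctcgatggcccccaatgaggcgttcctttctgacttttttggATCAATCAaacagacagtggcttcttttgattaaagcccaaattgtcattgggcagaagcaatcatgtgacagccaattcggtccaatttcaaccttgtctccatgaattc
Hoxa5: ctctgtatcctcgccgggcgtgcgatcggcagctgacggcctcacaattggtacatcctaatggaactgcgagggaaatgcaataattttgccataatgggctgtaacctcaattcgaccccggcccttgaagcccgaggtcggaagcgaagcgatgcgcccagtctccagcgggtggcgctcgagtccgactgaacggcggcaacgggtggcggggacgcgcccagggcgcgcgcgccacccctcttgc
Hoxb8: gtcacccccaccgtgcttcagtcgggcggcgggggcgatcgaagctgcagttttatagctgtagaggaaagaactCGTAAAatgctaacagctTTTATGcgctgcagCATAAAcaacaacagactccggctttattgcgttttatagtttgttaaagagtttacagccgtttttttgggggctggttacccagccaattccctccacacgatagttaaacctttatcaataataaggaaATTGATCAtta
Hoxd4: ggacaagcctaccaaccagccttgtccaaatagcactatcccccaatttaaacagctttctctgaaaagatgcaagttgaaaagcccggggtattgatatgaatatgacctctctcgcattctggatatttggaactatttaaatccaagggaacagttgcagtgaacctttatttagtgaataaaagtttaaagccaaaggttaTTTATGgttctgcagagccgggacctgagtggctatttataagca
The Hoxa5 stretch carries no match and 28 CG pairs, the Hoxd4 stretch 1 match and 3 CG pairs. In Hoxb8 3 matches to the posterior core lie close together and 1 composite match lies near the start site. RefSeq windows of 300 bases, which add 50 bases after the start, were matched for 22 of the 38 genes (24 windows). The composite motif was in 4 of the 24 windows (16.7%) and in 8.85% of all 32851 windows of that length. The posterior core was in 5 (20.8%) against 14.6% of all windows, and the 5 genes were Hoxa7, Hoxb8, Hoxd3, Hoxd4 and Hoxd11. A direct repeat spaced by 5 bases, the form of a retinoic acid response element (DR5, both strands), was in none of the 24 and in 0.0974% of all. CG pairs had a median of 14.5 per member window, against 7 over all windows. These matches are letters in short windows and were not tested for binding.

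Paralog group 5 was the strongest, with 50.2% of the control Hox counts. Hoxb5 (chromosome 11, 96303336 to 96306121), known from its part in vagal neural crest and placement of the shoulder girdle, ranged from 3.73 CPM in control 8 over a median of 37.6 to 89.2 CPM in control 11. Hoxa5 (chromosome 6, 52201754 to 52204587), needed for the phrenic motor column and for lung development, ranged from 2.70 CPM in control 8 over a median of 27.4 to 76.4 CPM in control 11. Both genes were lowest in controls 8 and 2 and highest in controls 11 and 7. The 2 genes together held 46.0% of all control Hox counts. Hoxc5, the copy in cluster C, reached 0.638 to 15.4 CPM with a median of 4.92 CPM.

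Group 4 held 19.9% of the counts, and all 4 of its members were detected. Hoxb4 (chromosome 11, 96318267 to 96321638), whose hindbrain border lies between rhombomeres, ranged from 2.01 CPM in control 8 over a median of 11.7 to 31.3 CPM in control 7. Hoxa4 ranged from 0.883 over 9.64 to 22.4 CPM in the same 2 libraries. Hoxc4 ranged from 0.982 over 6.03 to 14.7 CPM, with control 11 highest. Hoxd4 was far weaker, with 332 counts over the controls and none in control 8.

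Groups 1 to 3, the hindbrain groups, held fewer counts, at 1.14%, 4.34% and 12.1%. With both strands considered, only 674 of 3521 exonic bases of Hoxb3 and 672 of 3244 of Hoxd3 belong to 1 transcript. Reads on shared bases were given to none, so these shares do not compare groups per base. Hoxa3 (chromosome 6, 52169062 to 52213336), required for thymus and parathyroid, ranged from 1.67 over 7.64 to 19.7 CPM. Hoxb3 ranged from 0.785 over 6.90 to 18.7 CPM, and Hoxd3 from 0.589 over 3.28 to 7.65 CPM. In group 2, Hoxa2 (chromosome 6, 52162417 to 52164831), the selector gene of the second branchial arch, ranged from 0.988 CPM in control 3 over 3.81 to 10.7 CPM in control 7. Hoxb2, which acts in facial motor neurons, ranged from 0.285 CPM in control 2 over 2.82 to 7.10 CPM in control 7. Group 1 was represented by Hoxd1, with 412 control counts, whereas Hoxb1, the rhombomere 4 gene, had 3 counts in 2 libraries.

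Groups 6 to 8 were led by Hoxb8 (chromosome 11, 96281905 to 96285315), with 2419 control counts. It ranged from 0.190 CPM in control 2 over a median of 6.22 to 48.1 CPM in control 11, against 21.5 CPM in control 7. Hoxa6 ranged from 0.285 over 1.75 to 6.95 CPM. Hoxb6, Hoxb7, Hoxc6 and Hoxa7 had 432, 414, 336 and 184 control counts and reached at most 5.87, 7.21, 3.80 and 2.78 CPM. The other 2 members of group 8 were almost silent, with 3 counts for Hoxc8 and 49 for Hoxd8.

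Counts fell sharply between 2 neighbours in clusters A, B and C and more gradually in cluster D. In cluster A, Hoxa7 had 184 control counts and Hoxa9, 1245 bases away, had 4. In cluster B, Hoxb8 had 2419 and Hoxb9, 5309 bases away, had 0. In cluster C, Hoxc6 had 336 and Hoxc8, 4145 bases away, had 3. Cluster D declined from 332 counts for Hoxd4 to 49 for Hoxd8, 21 for Hoxd9 and 0 for Hoxd10, with 38 at Hoxd13. The highest-numbered gene with at least 100 control counts was number 7, 8, 6 and 4 in clusters A, B, C and D. Counts at Hoxb9 could be assigned over only 305 of its 2574 exonic bases, because the rest is shared with other transcripts, so its 0 is a weaker statement than that of Hoxc9, with 2374 such bases of 2374.

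**Figure D2:**
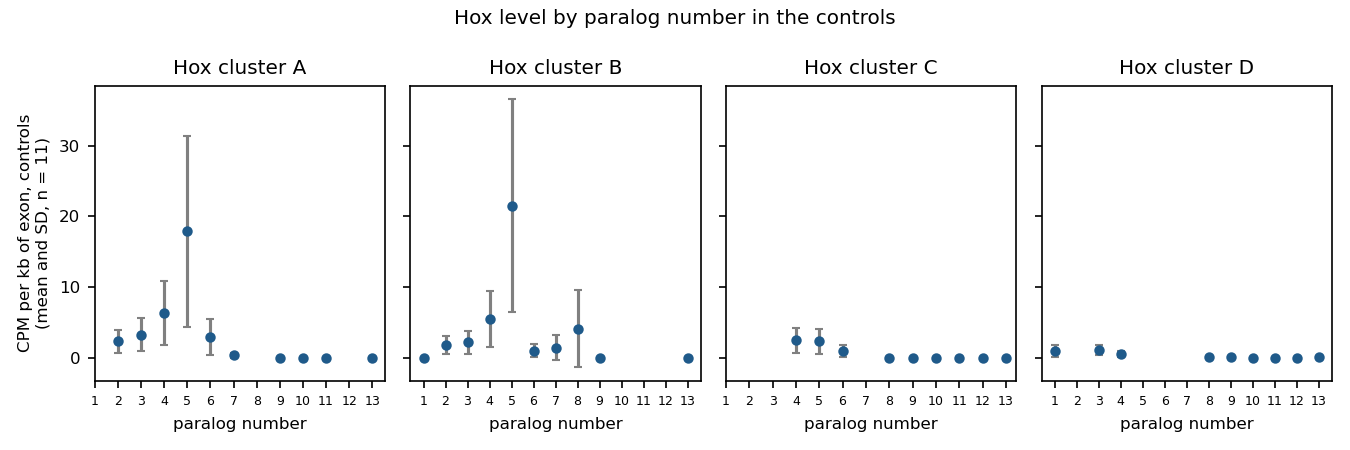
The 4 panels show, for each cluster, the level of each Hox gene in the 11 controls as CPM per kb of exon (mean and SD) against its paralog number. Hoxa5 at 17.9 and Hoxb5 at 21.5 CPM per kb rise above all others, Hoxb8 forms a lesser peak in cluster B, and all genes numbered 9 or higher lie at the baseline.

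Compared per length of exon, the order was led by Hoxb5 at 21.5 ± 15.0 CPM per kb (SD, n = 11), Hoxa5 at 17.9 ± 13.5, Hoxa4 at 6.37 ± 4.54 and Hoxb4 at 5.48 ± 3.91. Hoxb8, Hoxa3, Hoxa6, Hoxc4, Hoxc5, Hoxa2 and Hoxb3 followed between 4.14 and 2.18 CPM per kb. Hoxb2, Hoxb7, Hoxd3, Hoxd1, Hoxb6, Hoxc6, Hoxd4 and Hoxa7 lay between 1.75 and 0.331 CPM per kb. Of the 18 pairs of neighbours in this order, 5 differed within libraries at an adjusted p under 0.05 (exact two-sided sign-flip permutation test over the 11 controls, Benjamini-Hochberg over 18 pairs). The pairs were set by the means of these same 11 controls, so the p-values describe the order and are no independent test of it. Hoxb5 exceeded Hoxa5 in 11 of 11 libraries, by 0.33 ± 0.15 on the log2 scale (exact permutation test, adjusted p = 0.00879). Hoxa5 exceeded Hoxa4 in 11 of 11, by 1.41 ± 0.29 (exact permutation test, adjusted p = 0.00879). Hoxb4 exceeded Hoxb8 in 10 of 11, by 1.36 ± 1.28 (exact permutation test, adjusted p = 0.0176). The other 2 pairs were Hoxb2 above Hoxb7 and Hoxd4 above Hoxa7. The remaining 13 pairs could not be ordered against the spread between libraries. Hoxb8 stood above Hoxa3 by its mean but exceeded it in only 3 of 11 libraries. Counting only exon bases that belong to 1 transcript, with both strands considered, Hoxb5 and Hoxa5 kept ranks 1 and 2, while Hoxb3 moved from rank 11 to 3 at 11.4 CPM per kb and Hoxd3 from 14 to 8 at 5.02 CPM per kb. The order of Hoxb4 and Hoxb8 by mean turned with this length, with Hoxb8 at 7.30 CPM per kb above Hoxb4 at 5.48.

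The controls differed widely from each other. The summed Hox level was 17.6 CPM in control 8 and 29.7 CPM in control 2, had a median of 139 CPM, and reached 346 CPM in control 7 and 385 CPM in control 11, a 21.8-fold range. Of the 19 detected genes, 10 were highest in control 11 and 9 in control 7. The lowest library was control 8 for 13 genes, control 2 for 5 and control 3 for 1. Controls 8 and 2 were among the 3 lowest for all 19. The extremes, controls 7, 8 and 11, shared lane 4. In edgeR's quasi-likelihood test of lane 8 (6 controls) against lane 4 (3 controls), 0 of 19 tested members were called (0% of 19384 features were called in this comparison), and 0 had an unadjusted p under 0.05, against 1543 of all features. DESeq2 and limma-voom also called 0. By edgeR the 19 log2 differences were all below 0, with a median of -1.03 and a smallest adjusted p of 0.581. By limma-voom Hoxd4 was above 0, at 0.74.

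The mixture of paralog groups changed with the library as well as the sum. Groups 6 to 8 gave 3.04% of the Hox counts in control 2 (95% Wilson interval 1.95 to 4.70, counting error only), 4.84% in control 10 and 6.13% in control 8 (4.08 to 9.10). They gave 15.1% in control 5 (14.1 to 16.1) and 19.6% in control 11 (18.7 to 20.5). Control 7, with nearly the same sum as control 11, had 11.6% (10.9 to 12.4), and these 2 intervals do not overlap. Hoxb8 stood at 0.0255 of the Hoxb5 count in control 2 and at 0.539 in control 11. The highest library exceeded the lowest 10.8-fold for Hoxa2, 15.6-fold for Hoxb4, 23.9-fold for Hoxb5 and 253-fold for Hoxb8. The last value rests on 4 Hoxb8 counts in control 2. The range did not rise steadily with paralog number, at 49.6-fold for Hoxd1, 24.9-fold for Hoxb2 and 25.3-fold for Hoxa4.

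**Figure D3:**
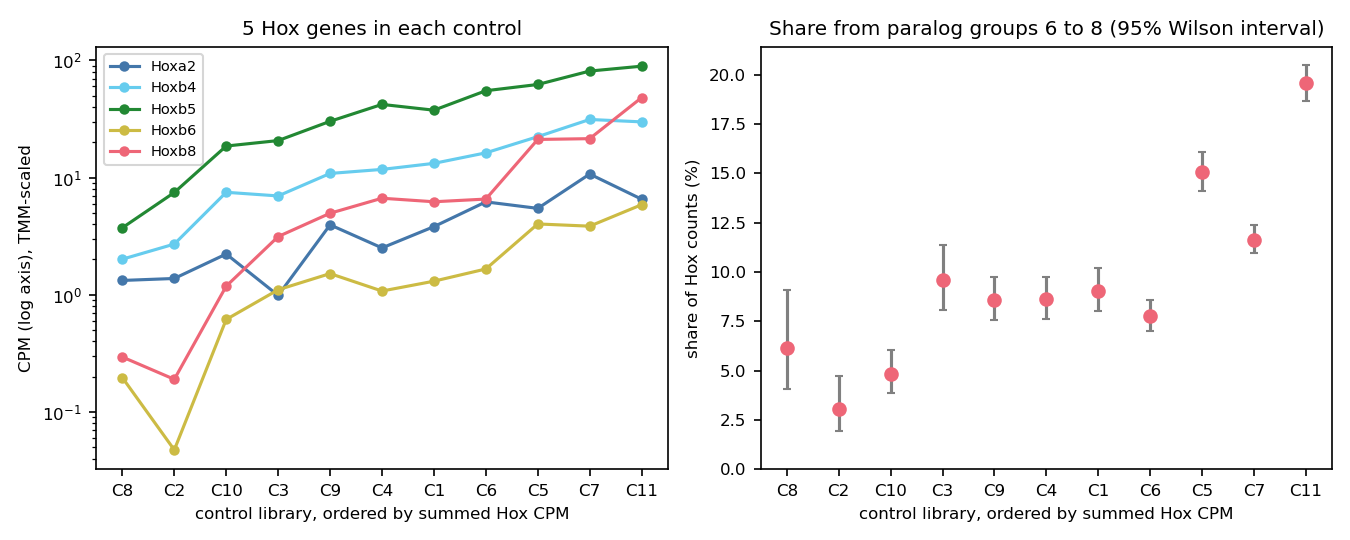
The left panel shows CPM (log axis) of Hoxa2, Hoxb4, Hoxb5, Hoxb6 and Hoxb8 in each control, and the right panel the share of Hox counts from paralog groups 6 to 8 with 95% Wilson intervals; libraries are ordered by summed Hox CPM. Hoxb8 climbs more steeply than Hoxb5, from 0.190 CPM in control 2 to 48.1 CPM in control 11, and the share runs from 3.04 to 19.6%.

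Hoxb5 was set beside 8 partner genes over the 11 controls on log2 CPM, with Benjamini-Hochberg adjustment over the 8 relations (permutation tests with 100000 resamples). Its level moved with that of the other Hox genes. Against Hoxa5, Pearson r was 0.996 (adjusted permutation p = 2.67e-05) and Spearman rho 1.00 (adjusted permutation p = 2e-05). Pearson r was 0.988 for Hoxc5, 0.974 for Hoxd3 and 0.957 for Hoxb8, with adjusted permutation p of 2.67e-05, 2.67e-05 and 4e-05, and rho was 0.982, 0.973 and 0.982 with adjusted permutation p = 2e-05 for each. The raw p of Hoxa5, Hoxc5 and Hoxd3 was 1e-05, the smallest these permutations can give. Without controls 2 and 8, the libraries farthest from the median, r was 0.987 for Hoxa5, 0.970 for Hoxc5, 0.956 for Hoxd3 and 0.944 for Hoxb8. Within the 6 lane 8 controls r was 0.996, 0.986, 0.948 and 0.987 in the same order.

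Of the region markers, Slc6a5 rose and fell with Hoxb5. Its r was 0.777 (raw permutation p = 0.00446, adjusted 0.00714) and rho 0.845 (adjusted permutation p = 0.00275). Its r was 0.767 without controls 2 and 8 and 0.892 within lane 8. Emx1 had r = -0.641 (adjusted permutation p = 0.0428) and rho = -0.591 (adjusted permutation p = 0.0606). The relation with Emx1 did not pass without controls 2 and 8 (r = -0.498, adjusted permutation p = 0.169) or within lane 8 (r = -0.712, adjusted permutation p = 0.135). Gabra6 had r = -0.471 (adjusted permutation p = 0.127) and rho = -0.691 (adjusted permutation p = 0.0253). Its r was -0.594 without controls 2 and 8 and 0.0781 within lane 8. All points share the library, so these values describe libraries and not cells.

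Hoxd13, a gene of limb digits and the genital tubercle, did not follow the other members. Its 38 control counts were spread over 9 libraries, with 8 in control 8, 6 each in controls 2, 7 and 10, and 5 in control 1. Controls 2, 8 and 10, 3 of the 4 with the lowest Hox sums, held 20 of the 38 counts, and control 11, the highest, held 0. Evx2, the homeobox gene beside Hoxd13 at the end of the cluster, had 117 counts in control 7, 97 in control 2, 73 in control 6, 71 in control 10 and 58 in control 8. It had 5 in control 3, where Hoxd13 had 0, but 52 in control 11, where Hoxd13 also had 0. Such low counts allow no test per library, and this gene was singled out after its values were seen.

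**Figure D4:**
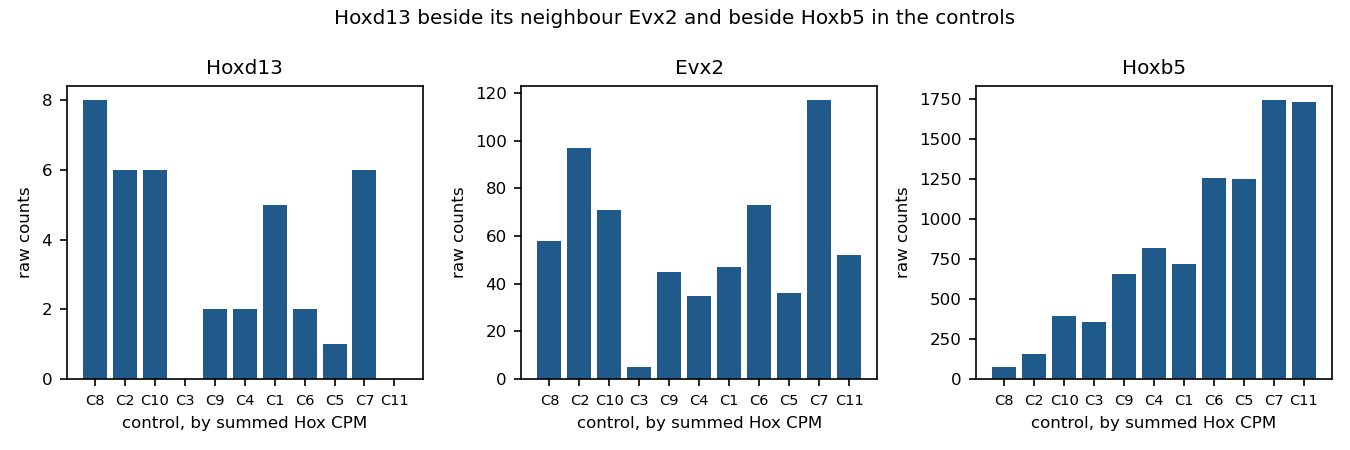
Bars give raw counts of Hoxd13, its neighbour Evx2 and Hoxb5 in each control, with the libraries in the order of summed Hox CPM on all 3 axes. Hoxb5 climbs from left to right, whereas Hoxd13 has 20 of its 38 counts in controls 8, 2 and 10 on the left and none in control 11.

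In the transgene libraries Hox RNA was close to absent. The 6 libraries held 11, 18, 9, 6, 21 and 9 Hox counts, in all 74 of 124295973 assigned counts, against 36389 of 217943840 in the controls. Against all controls the summed share was 280.4-fold lower (exact 95% interval 223 to 357, counting error only). Against the lane 4 controls it was 419-fold lower (334 to 534). These intervals, and the exact intervals of single genes below, pool reads over libraries and leave out the spread between libraries. The same holds for the values given below as at least so many fold lower. The least Hox-rich control had 17.6 CPM and the richest transgene library 0.985 CPM, so the sums did not overlap. In bulk tissue, fewer cells of a type and less RNA per cell cannot be told apart.

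**Figure D5:**
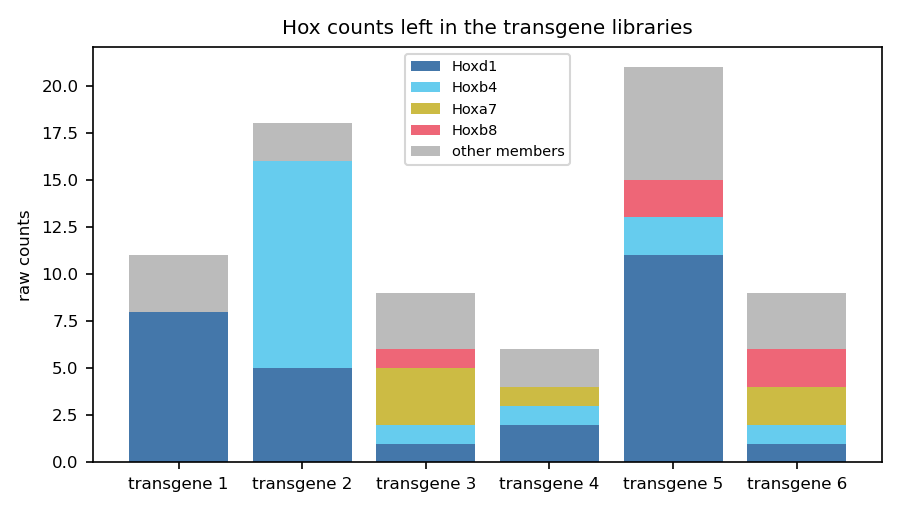
Stacked bars give the raw Hox counts of each transgene library, split into Hoxd1, Hoxb4, Hoxa7, Hoxb8 and all other members. The totals lie between 6 and 21 counts, with Hoxd1 making up most of transgene 1 and Hoxb4 most of transgene 2.

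Group 5, the strongest in the controls, left 8 counts in all. Hoxb5 had 4 counts in the 6 transgene libraries (0, 0, 0.053, 0, 0.094 and 0.059 CPM). Its log2 fold change was -9.99 ± 0.99 (edgeR, approximate standard error, adjusted p = 4.55e-07). Hoxa5 had 3 counts, a ratio of assigned shares of 1439 (exact 95% interval 492 to 6980). Hoxc5 had 1 count, a ratio of 877 (157 to 34667). Every transgene library lay below every control for these 3 genes.

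In group 4, Hoxa4 had 1 count and Hoxc4 had 2, with ratios of 1305 (exact 95% interval 234 to 51585) and 411 (114 to 3401). Hoxd4 had none, at least 63.1-fold lower against a floor of 3 counts over the transgene group. Hoxb4 kept 16 counts, 11 of them in transgene 2 at 0.536 CPM, and had a log2 fold change of -6.64 ± 0.80 (edgeR, adjusted p = 2.70e-06), or -7.91 without transgene 2. The lowest control, at 2.01 CPM, was still above transgene 2. In group 3, Hoxa3 had 3 counts and Hoxb3 had 1, with ratios of 363 (124 to 1761) and 992 (178 to 39195), and Hoxd3 had none, at least 145-fold lower.

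In group 2 both members were at 0 in all 6 transgene libraries, which puts Hoxa2 at least 178-fold and Hoxb2 at least 122-fold lower. Hoxd1 of group 1 was the member with the most counts left. It had 28 counts, with 8 in transgene 1, 11 in transgene 5, and 1 to 5 in the other 4. Its log2 fold change was -2.93 ± 0.73 (edgeR, adjusted p = 0.0027), and the groups overlapped, since 0.516 CPM in transgene 5 exceeded 0.098 CPM in control 8. By limma-voom its adjusted p was 0.0561. The antisense neighbour Haglr, which lies in the same cluster, also had its highest transgene counts in transgene 1 and 5, 11 and 9, against 0 to 4 in the others. The same 2 libraries had 105 and 100 counts of Gata3, a transcription factor gene of brainstem and midbrain inhibitory neurons, against 0 to 3 in the other 4, and the part of such cells in the Hoxd1 counts was not tested.

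In groups 6 to 8, Hoxa6, Hoxb6 and Hoxb7 had no transgene count, at least 107-fold, 82.1-fold and 78.7-fold lower than the pooled controls. In control 2 alone, Hoxb6 and Hoxb7 had 1 count each. Hoxc6 had 1 count, a ratio of 192 (exact 95% interval 34.2 to 7591). Hoxb8 had 5 counts and a log2 fold change of -7.81 ± 1.45 (edgeR, adjusted p = 0.000223; limma-voom, adjusted p = 0.0846), or -7.21 without control 11. Hoxa7 had 6 counts in 3 libraries and a log2 fold change of -3.85 ± 0.98 (edgeR, adjusted p = 0.00315), or -4.48 without transgene 3. It overlapped between groups, as control 8 had 0. Of the weaker genes, Hoxd8 fell from 49 control counts to 0, at least 9.32-fold lower. Hoxd13 had 1 transgene count and a ratio of 21.7 (exact 95% interval 3.66 to 878). Hoxd9 kept 2 counts, both in transgene 5, against 21 in the controls.

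The expression filter passed 19 members, each through its level in the controls, so that they had to be lower in the transgene group and their count is given as a description. All 19 passed edgeR's quasi-likelihood test as lower over all libraries, where 24.4% of 19136 features were called lower. Groups did not overlap for 16 of the 19, against 5.38% of features without overlap and lower. Without the filter, 28 members with any count were tested and 21 were called lower, against 12.4% of features; the 2 added were Hoxd8 and Hoxd13. Within lane 4, which holds the sequencing lane fixed, 12 members were tested and 12 called lower (12% of features), of which 11 did not overlap (10.6% of features). Without the filter in lane 4, 22 of 27 were called, against 6.04% of features. By limma-voom the counts were 17 of 19 over all libraries and 9 of 12 in lane 4. The shares of features above are by edgeR, and the limma-voom shares are not given here.

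The markers of brain regions differed along with the Hox genes. Of 10 tested genes of brainstem and cord neurons, 7 were lower in the transgene libraries and 1 was higher (24.4% of all features were lower and 23% higher). Within lane 4, 7 were lower and none higher (12% and 13.6% of features). Their summed level ran from 21.2 to 303 CPM in the controls and from 10.8 to 25.2 CPM in the transgene libraries, and Slc6a2 of that list was at 0 in all transgene libraries. All 6 markers of cerebellar granule cells and 5 of 6 of Purkinje cells were lower over all libraries, the granule cell sum running from 33.5 to 1791 CPM in the controls and from 21.8 to 311 CPM in the transgene libraries. Within lane 4, 4 of 6 granule cell and 1 of 6 Purkinje cell markers were lower. All 9 tested telencephalon markers were higher over all libraries and within lane 4, with sums of 12.8 to 223 CPM in the controls and 459 to 689 CPM in the transgene libraries. Their part in the Hox difference was not tested. Of choroid plexus genes 1 of 4 was lower and none higher, and of meningeal genes 2 of 6 were lower and none higher; within lane 4 none of either list passed. Motor neuron and nerve root genes were too low to test, and Mnx1 had 18 control counts and no transgene count.

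Genes within the Hox clusters other than the coding members were lower too where they could be measured. Of 40 such annotated genes, mostly noncoding, 7 were tested and 7 were called lower, where 24.4% of all features were. Within lane 4, 3 of 3 were, where 12% of features were. All 7 passed the filter through the controls, so these counts are a description. Hoxb3os and Hoxaas2, antisense transcripts of clusters B and A, fell from 524 and 622 control counts to 0 and 1. Haglr, which runs opposite to the D cluster, fell from 828 to 29 counts, a log2 fold change of -3.87 ± 0.67 (edgeR, adjusted p = 0.00012). The hairpin genes Mir10a and Mir10b had 6 and 7 control counts. Because the strand setting of the counting is not given, reads of an antisense gene and its Hox partner cannot be told apart where they overlap.

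Of 16 tested genes flanking the clusters, 5 were higher and 5 lower, beside 23% and 24.4% of all features. Within lane 4, 2 of 17 were higher and 4 lower, beside 13.6% and 12% of all features. Evx1 and Evx2, the even-skipped homeobox genes that cap clusters A and D, were the flanking genes with the largest falls. Evx1 went from 2.78 ± 1.34 CPM (SD, n = 11) to 5 counts, all in transgene 1, a log2 fold change of -5.84 ± 0.63 (edgeR, adjusted p = 9.19e-07). Evx2 went from 2.77 ± 1.40 CPM to 1 count, a ratio of 363 (exact 95% interval 64.9 to 14349). Farther out, Hibadh beside Evx1 had a log2 fold change of -0.49 ± 0.06, Snx10 beyond the other end of cluster A one of 0.81 ± 0.15, and Lnpk beside Evx2 -0.04 ± 0.18 (edgeR, adjusted p = 0.866).

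Genes whose proteins work with Hox proteins stayed expressed. Of the 9 TALE homeodomain cofactors, which bind DNA together with Hox proteins, 4 were higher, 1 was lower and 4 did not pass the test, where 24.4% of all features were lower and 23% higher. Meis2 rose by 1.64 ± 0.32 and Pknox2 by 1.21 ± 0.19, and Meis1 fell by 1.39 ± 0.28 on the log2 scale. Within lane 4, 2 of the 9 were higher and 1 lower, where 13.6% and 12% of all features were. The Meis2 call was lost there (log2 fold change 0.88, edgeR adjusted p = 0.0631). Meis3 stood at 15.8 CPM in both groups.

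Among 17 upstream regulators of Hox genes 10 were tested, of which 3 were higher and 3 lower, where 23% of all features were higher and 24.4% lower. Cyp26b1, which degrades retinoic acid, fell from 8.79 ± 1.24 to 2.48 ± 0.75 CPM, a log2 fold change of -1.83 ± 0.16. Rarb, a retinoic acid receptor gene, rose by 1.41 ± 0.18, and Egr2, which acts in hindbrain segmentation, rose by 2.08 ± 0.70. The groups overlapped for Egr2, at 0 to 2.46 CPM in the controls and 0.236 to 4.30 CPM in the transgene libraries. Otx2, a head gene also active in choroid plexus, fell by 1.42 ± 0.55, and Gdf11, a signal that favours posterior Hox genes, fell by 0.51 ± 0.14. Within lane 4 the calls of Egr2 (log2 fold change 2.01, edgeR adjusted p = 0.135) and Otx2 (log2 fold change -0.86, edgeR adjusted p = 0.539) were lost. Cdx2 and Fgf8, embryonic regulators, had no count in any library. Of 18 tested Polycomb and Trithorax genes, which keep Hox genes off or on, 1 was higher and 4 lower, the latter near the 24.4% of all features. Kdm6b, Eed, Cbx7 and Cbx2 fell by 0.48 ± 0.12, 0.40 ± 0.08, 0.39 ± 0.14 and 0.30 ± 0.12. The median log2 fold change of the 18 was -0.18, beside -0.05 over all features. Within lane 4 none of these 4 that fell passed the test (edgeR, adjusted p from 0.0956 to 0.331). Their log2 fold changes there were -0.32, -0.27, -0.23 and -0.31 in the same order.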

How the data were processed

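Total RNA of mouse brain was sequenced in 17 libraries. The authors deposited raw counts per transcript for each library, and the genome build was mm10 per the submitters' processing notes. No aligner, counter or strand setting is named in the sources used here. Transcript rows were matched by name to GENCODE M21 and summed to genes (64380 rows, 41015 genes); rows that name no feature were left out. Genes were tested with edgeR 4.0.16 (TMM scaling, default expression filter, quasi-likelihood F test) in R 4.3.3 over all features, calling a Benjamini-Hochberg adjusted p under 0.05. DESeq2 1.42.0 and limma-voom (limma 3.58.1) were alternatives, as were no filter, library-size scaling, a lane factor, other exon lengths and libraries left out in turn. Log2 fold changes are transgene over control, ± an approximate standard error. It was back-calculated as the absolute log2 fold change divided by the square root of the F statistic. CPM are TMM-scaled. Counts were simulated with 200 changed features. The data gave 9078 calls over all libraries and 4936 within lane 4, so the simulated rates may not carry over. On the simulated counts, edgeR recovered 73% of 2-fold and 98% of 8-fold changes over all libraries among 19136 features, with 6.04% false calls. Within lane 4 it recovered 38% and 91% among 19261 features, with 5.84% false calls. A call lost in lane 4 therefore does not by itself show a smaller change. The design set full values for members with at least 500 control counts and called list genes with the largest changes, and Hoxd13 was added. The members and lists were chosen with earlier results of these data known. One further Hox gene and some single genes of the other lists and relations are not reported here; they stay in the counts and adjustments. No library column was left unused.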

Additional observations from a re-analysis of the deposited data

Results flagged for a closer look

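For Hoxb4, transgene 2 stood apart from the other 5 transgene libraries, at 0.536 CPM against 0.0938 CPM in the next. Among the 6 lane 8 controls, control 5 was the highest library by a wide gap for 5 members. It had 5.31 CPM of Hoxa6 against 2.09 in the next library, 4.02 against 1.52 of Hoxb6, 4.32 against 1.10 of Hoxb7, 21.1 against 6.22 of Hoxb8 and 2.93 against 1.24 of Hoxd4. Each was named because the gap to the nearest library exceeded 0.625 of the group's range, which chance gives in about 1 of 20 groups. The 5 genes share the library and are not independent of each other.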

How the results depend on the processing

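No paired analysis was possible because the labels carry no replicate numbers shared between the groups. Of 605 gene results under alternatives, 600 kept their direction and their side of the threshold, and none reversed. The members passed the filter through the controls, so their kept direction is a description. Not among the 605 are Hoxa7 without control 1, 5, 6, 7, 9 or 11, and Hoxd1 in lane 4 without transgene 5. In those fits the gene was not tested. Over all libraries the count of members called lower was 12 when only genes with a single deposited row were kept (12 such members tested), and 18 to 19 with each library left out in turn. In lane 4 it was 22 without an expression filter, and 11 to 20 with each library left out in turn. The count of 20 came without control 8, when 20 members passed the filter. The 17 over all libraries by limma-voom lacked Hoxb8 and Hoxd1, and the 9 in lane 4 lacked Hoxa5, Hoxb5 and Hoxd1. The count of ordered neighbours was 0 in the lane 8 controls alone, where 6 libraries give no p below 0.03125. The transgene group held 60 Hox counts in genes with a single row. Library-size scaling moved the median log2 fold change of all features from -0.05 to -0.16 over all libraries and their calls from 51.4% to 64.4% lower, with 19 members lower under both. Without controls 4, 6 and 8 and transgene 5, whose titles differ from most of their group in a suffix (a setting chosen after seeing the data), 19 members were lower, and the log2 fold change of Hoxd1 was -3.52, of Hoxb5 -10.65 and of Hoxb8 -8.48. Depth limits the genes at 0 and the ratios that rest on 1 to 6 counts.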
